A study of Mus musculus with 6 samples.

Results

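The genes described here encode 10 mouse factors of translation. They were the elongation factors *Eef1a1*, *Eef1b2*, *Eef1d*, *Eef1g* and *Eef2*, the initiation factor subunits *Eif3e*, *Eif3f* and *Eif3h*, the poly(A) tail binding protein *Pabpc1*, and *Tpt1*. They were chosen by symbol, as translation factors whose mRNAs belong to or accompany the class with a 5′ terminal oligopyrimidine (TOP) motif, and the rule uses no values, although the list was drawn up with earlier results of these libraries known. Each matched 1 row of the deposited table of 47729 genes, and all 10 were among the 19308 genes that were tested, those averaging 20 reads or more. The RNAseq libraries came from proximal epiphyses of the tibia at an age of 14 days, with 3 mice of the Control line (ICR, random-bred) and 3 mice of LS1, Longshanks 1, a line bred for tibiae that are long for the body mass. The mice were untreated, came from different families of the same generation, and each library pooled both epiphyses of 1 mouse. Their sex was not given in the sources used here. A single selected line stood against a single Control line, so selection and any other difference between these lines cannot be told apart.

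Growth of a long bone depends on chondrocytes of the growth plate that divide, enlarge and secrete a large amount of matrix protein, and so on the machinery of translation. During elongation, eEF1A brings aminoacyl-tRNA to the ribosome, the eEF1B complex (the products of *Eef1b2*, *Eef1d* and *Eef1g*) recharges eEF1A with GTP, and eEF2 moves the ribosome along the mRNA. TOP mRNAs start with a C followed by a run of pyrimidines. Their translation is controlled through mTORC1 and the RNA-binding protein LARP1, so a change in that control can occur without a change in the mRNA level, which is what these libraries measure.

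The 5′ ends of the mRNAs are shown first, because the TOP class is defined by them. The stretches below were read from the main GENCODE M21 transcript of 9 of the genes on GRCm38, 5′ to 3′ on the sense strand. Capitals mark the first run of a C followed by at least 4 pyrimidines (C or T) within the first 60 bases, and at most 5 bases before the run are shown.
Eef1a1: acgttCTTTTTCgcaacgggtttgccgtca
Eef1b2: gagcgCTTTCgttcaactccggctcctcag
Eef1d: gggcgCCCTCCCTCTCCTTTgcagtcctga
Eef1g: gtatgCCTTTTatgccgtcctcgctttccg
Eif3e: aagcgCTCCTTTCCCCCggcaagatggcgg
Eif3f: CTCTTTCTCggcaagatggcttctccggcc
Eif3h: ttccgCTTCCggcgcctcacgcttctcttt
Pabpc1: CCCCTTCTCCCCggcggttagtgctgagag
Tpt1: caccgCCCCCgttgccccgcgcacccaggg

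All 10 genes held such a run within 60 bases of the annotated start. The same held for 65 of 79 genes of cytosolic ribosomal proteins (82.3%), the largest group of TOP mRNAs, and for 57.8% of the 21606 protein-coding genes of the table, so the run alone is common. The run lay at the first annotated base in *Eif3f* (9 bases) and *Pabpc1* (12 bases), 2 of the 10 genes. This position was found in 11 of 79 ribosomal protein genes (13.9%) and in 2.13% of all protein-coding genes. In the others the run began between base 10 (*Eif3e*) and base 54 (*Eef1a1*). An annotated start is not a measured start, and only these letters in this window were searched, on the transcript strand.

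The libraries held 68803249 to 76581954 reads in Control and 82227711 to 88745366 in LS1, so that every LS1 library was deeper. The values below are normalized counts, the authors' read counts scaled by the size factor of each library. Along the main axis of variation over all genes tested (principal component 1, 35.1% of the variance), LS1 replicates 1 and 2 lay at 43.7 and 50.1 and the Control libraries between -41.5 and -22.1. LS1 replicate 3, at -4.29, stood with neither group. Differences were tested with limma on log2(normalized count + 1), with Benjamini-Hochberg adjustment over the 19308 genes.

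None of the 10 genes differed between LS1 and Control at an adjusted p-value under 0.05 from limma. Across all genes tested, 14 (0.0725%) passed. Of the 10 genes, 7 had a lower and 3 a higher mean log2 level in LS1, and their log2 fold changes (LS1 minus Control) ran from -0.40 for *Eef1g* to 0.18 for *Eif3e*. The median log2 fold change was -0.07, against 0.0054 for all genes tested and -0.31 for the ribosomal protein genes. *Eef1g* was the 1 gene of the 10 with an unadjusted p-value under 0.05, in the direction that 5.86% of all genes tested took at that threshold. DESeq2 and edgeR, run on the recovered reads, also called 0 of the 10 genes, each with 1 gene at an unadjusted p-value under 0.05. DESeq2 called 2.36% of all genes.

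Reads were not scarce for these genes. Each had between 8863 and 377134 reads in every library, so that counting error was small beside the standard errors of 0.13 to 0.18 on the log2 scale. The 95% intervals of the 10 fold changes lay between -0.77 and 0.49 on the log2 scale, or 0.588-fold and 1.41-fold. The absolute log2 fold change had a median of 0.142 over the 10 genes and of 0.213 over all genes tested. Of all log2 fold changes, the 5th and 95th percentiles were -0.65 and 0.69.

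**Figure D1:**
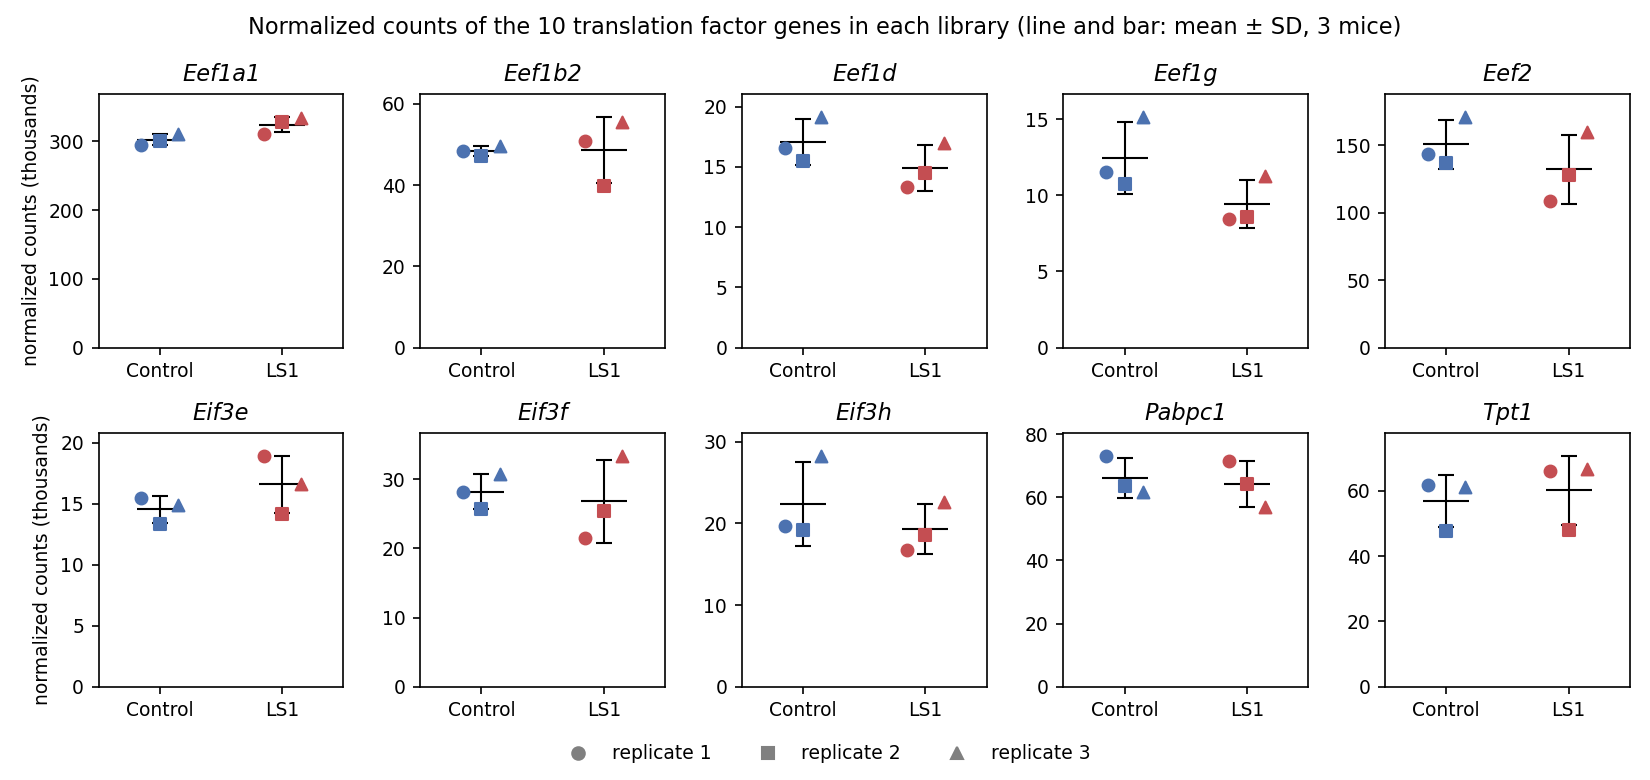
Normalized counts (scaled as the axis says, linear from 0) of the 10 genes in the 3 Control and 3 LS1 libraries, with 1 point per library, a line at the mean and bars of 1 SD. The groups overlap in 9 of the 10 panels, and in *Eef1a1* the lowest LS1 library (311253) lies just above the highest Control library (310380).

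*Eef1a1* (ENSMUSG00000037742, chr9:78478449-78489151, minus strand), which encodes the carrier of aminoacyl-tRNA, was the most abundant of the 10. Its normalized counts were 294898, 300865 and 310380 in Control and 311253, 328199 and 333320 in LS1. Every LS1 library was above every Control library, an order found in 10.3% of all genes tested, and the gap between the groups was small beside the range within each. The means were 302047 ± 7808 (SD, n = 3) and 324257 ± 11550 (SD, n = 3), with a log2 fold change of 0.10 (SE 0.13, 95% interval -0.17 to 0.38, adjusted p = 0.766 from limma). With the reads of its 13 pseudogenes in the table added, the groups overlapped, with 337318 in Control replicate 3 and 335222 in LS1 replicate 1.

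The 3 genes of the eEF1B exchange complex did not show a common difference. *Eef1b2* (ENSMUSG00000025967, chr1:63176825-63180486, plus strand) encodes a subunit with exchange activity. It had 48486, 47112 and 49669 normalized counts in Control and 50840, 39692 and 55592 in LS1. The LS1 libraries lay on both sides of the Control range, and the log2 fold change was -0.0054 (SE 0.15, adjusted p = 0.994 from limma). The SD was 1280 in Control and 8162 in LS1.

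*Eef1d* (ENSMUSG00000055762, chr15:75894205-75909556, minus strand), the delta subunit, had 16559, 15466 and 19179 normalized counts in Control and 13303, 14489 and 17019 in LS1. LS1 replicates 1 and 2 were below every Control library, and LS1 replicate 3 was above Control replicates 1 and 2. The log2 fold change was -0.19 (SE 0.14, 95% interval -0.51 to 0.12, adjusted p = 0.588 from limma). For *Eef1d* it was -0.11 without Control replicate 3 and -0.29 without LS1 replicate 3.

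*Eef1g* (ENSMUSG00000071644, chr19:8967041-8978479, plus strand) encodes the gamma subunit, which holds the complex together. Its normalized counts were 11532, 10726 and 15160 in Control and 8440, 8601 and 11243 in LS1. The groups overlapped because LS1 replicate 3 exceeded Control replicate 2. The means were 12472 ± 2362 (SD, n = 3) and 9428 ± 1574 (SD, n = 3), and the log2 fold change was -0.40 (SE 0.17, 95% interval -0.77 to -0.033). Its p-value from limma was 0.0352 before and 0.346 after adjustment. Without Control replicate 3 the log2 fold change was -0.25 and without LS1 replicate 3 it was -0.53, with adjusted p-values from limma of 0.706 and 0.148.

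*Eef2* (ENSMUSG00000034994, chr10:81176631-81182498, plus strand), the translocase, had 143722, 137115 and 171173 normalized counts in Control and 108612, 128179 and 159534 in LS1. LS1 replicates 1 and 2 were again below every Control library, while LS1 replicate 3 was within the Control range. The means were 150670 ± 18061 (SD, n = 3) and 132108 ± 25688 (SD, n = 3), a log2 fold change of -0.20 (SE 0.17, 95% interval -0.56 to 0.16, adjusted p = 0.637 from limma). For *Eef2* it was -0.07 without LS1 replicate 1 and -0.35 without LS1 replicate 3.

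The 3 subunits of eIF3, the scaffold that joins mRNA to the small ribosomal subunit, had log2 fold changes of both signs. *Eif3e* (ENSMUSG00000022336, chr15:43250058-43282719, minus strand) had 15455, 13311 and 14877 normalized counts in Control and 18940, 14199 and 16643 in LS1. LS1 replicates 1 and 3 were above every Control library, and the log2 fold change was 0.18 (SE 0.14, 95% interval -0.13 to 0.49, adjusted p = 0.612 from limma). For *Eif3e* it was 0.08 without LS1 replicate 1 and 0.29 without LS1 replicate 2.

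*Eif3f* and *Eif3h*, whose products form a dimer within eIF3, had negative log2 fold changes. *Eif3f* (ENSMUSG00000031029, chr7:108934417-108942951, plus strand) had 28122, 25741 and 30739 normalized counts in Control and 21553, 25392 and 33412 in LS1, the last being the highest of the 6. Its log2 fold change was -0.09 (SE 0.17, adjusted p = 0.848 from limma), with -0.27 without LS1 replicate 3 and 0.05 without LS1 replicate 1. The LS1 values spread wider than the Control values and enclosed their whole range.

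*Eif3h* (ENSMUSG00000022312, chr15:51786558-51865523, minus strand) had 19653, 19205 and 28294 normalized counts in Control and 16721, 18568 and 22624 in LS1. Control replicate 3 stood well above Control replicates 1 and 2. The log2 fold change was -0.20 (SE 0.18, 95% interval -0.59 to 0.19, adjusted p = 0.659 from limma), and it was -0.02 without Control replicate 3 and -0.32 without LS1 replicate 3.

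*Pabpc1* (ENSMUSG00000022283, chr15:36595661-36609668, minus strand) encodes the protein that coats the poly(A) tail and promotes initiation. It had 73222, 63606 and 61564 normalized counts in Control and 71414, 64114 and 57092 in LS1. The values of the lines interleaved, with a log2 fold change of -0.04 (SE 0.14, 95% interval -0.35 to 0.26, adjusted p = 0.921 from limma).

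*Tpt1* (ENSMUSG00000060126, chr14:75845093-75848525, plus strand) encodes the translationally controlled tumour protein TCTP, a classical TOP mRNA product. Its normalized counts were 61760, 47778 and 61142 in Control and 66042, 47988 and 66532 in LS1. Replicate 2 was the lowest library in both lines, and the log2 fold change was 0.08 (SE 0.17, 95% interval -0.29 to 0.44, adjusted p = 0.883 from limma). The sign of the *Tpt1* fold change turned, at -0.05, without Control replicate 2.

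**Figure D2:**
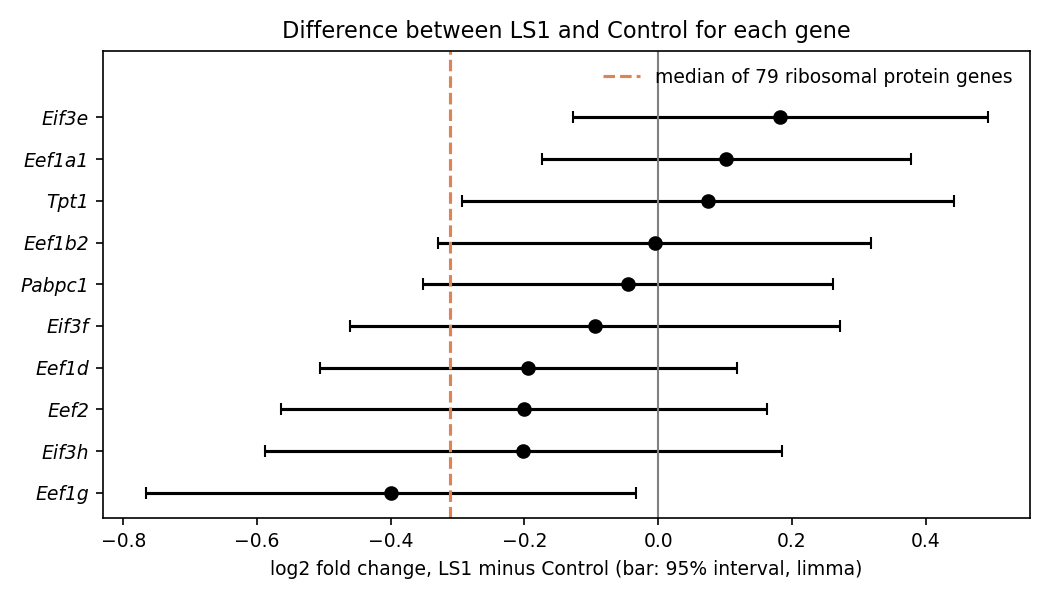
Log2 fold change of each gene (LS1 minus Control, points) with its 95% interval from limma (bars), ordered by size, with a dashed line at the median of the 79 ribosomal protein genes (-0.31). The interval of *Eef1g* (-0.77 to -0.033) lies below 0 and the 9 others include 0.

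LS1 replicate 3 weighed on several of these values. Without it, the median log2 fold change of the 10 genes was -0.19, and *Eef1d*, *Eef1g*, *Eef2*, *Eif3f* and *Eif3h* were below every Control library in the remaining LS1 mice. With all 6 libraries, 0 of the 10 genes had every LS1 library below every Control library, against 8.94% of all genes tested. Without LS1 replicate 3 it was 5 of the 10, against 16.6% of all genes. These 5 genes varied together over the 6 libraries (Pearson r 0.748 to 0.978), so they do not count as 5 separate observations. Without LS1 replicate 3 the lowest adjusted p-value from limma was the 0.148 of *Eef1g*. The number of all genes called was then 324. The library was kept, since its label gives no reason to leave it out.

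Levels per kilobase of the main transcript were used to order the genes. In Control they ran from 164380 to 173010 normalized counts per kilobase for *Eef1a1*, and this gene stood apart from every other gene of the 10. *Eef2* (44388 to 55414) and *Tpt1* (40871 to 52831) came next and overlapped each other. *Eef1b2* (24297 to 25616) overlapped *Pabpc1* (21855 to 25993). They were followed by *Eif3h* (14830 to 21849), *Eif3f* (10239 to 12227) and *Eif3e* (8839 to 10262), of which *Eif3f* and *Eif3e* overlapped by a narrow margin.

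*Eef1d* (6690 to 8295) and *Eef1g* (5754 to 8133) were the least abundant and overlapped each other. In LS1 the neighbours overlapped or stood apart as in Control, except that *Eif3f* (8573 to 13290) overlapped *Eif3h* (12912 to 17470). By LS1 means, *Tpt1* (51486) was above *Eef2* (42767) and *Eif3e* (11019) was above *Eif3f* (10655), the reverse of Control. Of 14970 tested protein-coding genes ranked by this level, the 10 genes took ranks from 10 to 864. These levels leave out reads on pseudogenes. With those in the table added, the Control mean of *Eef1g* went from 12472 to 18540 normalized counts and that of *Eef1d* from 17068 to 17984. *Eef1g* was then above *Eef1d*, so its place as the least abundant depends on those reads. The order depends on the transcript model as well. With all annotated exons as the length, the Control means per kilobase were 45328 for *Eef2* and 23905 for *Tpt1*, *Pabpc1* (10112) came below *Eif3h* (13886), and *Eif3e* (2165) and *Eef1d* (2631) came below *Eef1g* (4797).

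The proportions of the mRNAs within eEF1 and within eIF3 were compared as ratios of normalized counts in each library. *Eef1a1* had 25.6, 28.1 and 20.5 times the normalized counts of *Eef1g* in the Control libraries and 36.9, 38.2 and 29.6 times in the LS1 libraries. The mean ratio was 24.7 ± 3.86 in Control and 34.9 ± 4.59 in LS1 (SD, n = 3 each), with every LS1 library above every Control library. The exact two-sided permutation test gave p = 0.1, the smallest that 3 against 3 libraries allows, and 0.225 after adjustment over the 9 ratios within eEF1 and eIF3.

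The ratio of *Eef1b2* to *Eef1g* was 4.20, 4.39 and 3.28 in Control and 6.02, 4.62 and 4.94 in LS1. That of *Eef1d* to *Eef1g* was 1.44, 1.44 and 1.27 in Control and 1.58, 1.68 and 1.51 in LS1. The groups did not overlap in these ratios either, nor in that of *Eef1a1* to *Eef1d*, which was 17.8 ± 1.63 in Control and 21.9 ± 2.02 in LS1 (SD, n = 3 each). Thus 4 of the 6 ratios within eEF1 were without overlap, each at p = 0.1 from the exact permutation test, and 3 of these 4 share *Eef1g*. Of all pairs of tested genes, 18.8% had a ratio without overlap in either direction. With the pseudogenes of each gene added, 3 of the 6 ratios were without overlap, and that of *Eef1b2* to *Eef1g* overlapped (2.86, 2.96 and 2.28 in Control and 4.11, 2.74 and 3.37 in LS1). They are ratios of counts for whole genes, not of transcript molecules.

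None of the 3 ratios within eIF3 was without overlap. The ratio of *Eif3e* to *Eif3h* was 0.786, 0.693 and 0.526 in Control and 1.13, 0.765 and 0.736 in LS1 (p = 0.3, exact permutation test). That of *Eif3e* to *Eif3f* was 0.517 ± 0.0328 in Control and 0.645 ± 0.204 in LS1 (SD, n = 3 each) (p = 0.4, exact permutation test), with the highest value, 0.879, in LS1 replicate 1.

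**Figure D3:**
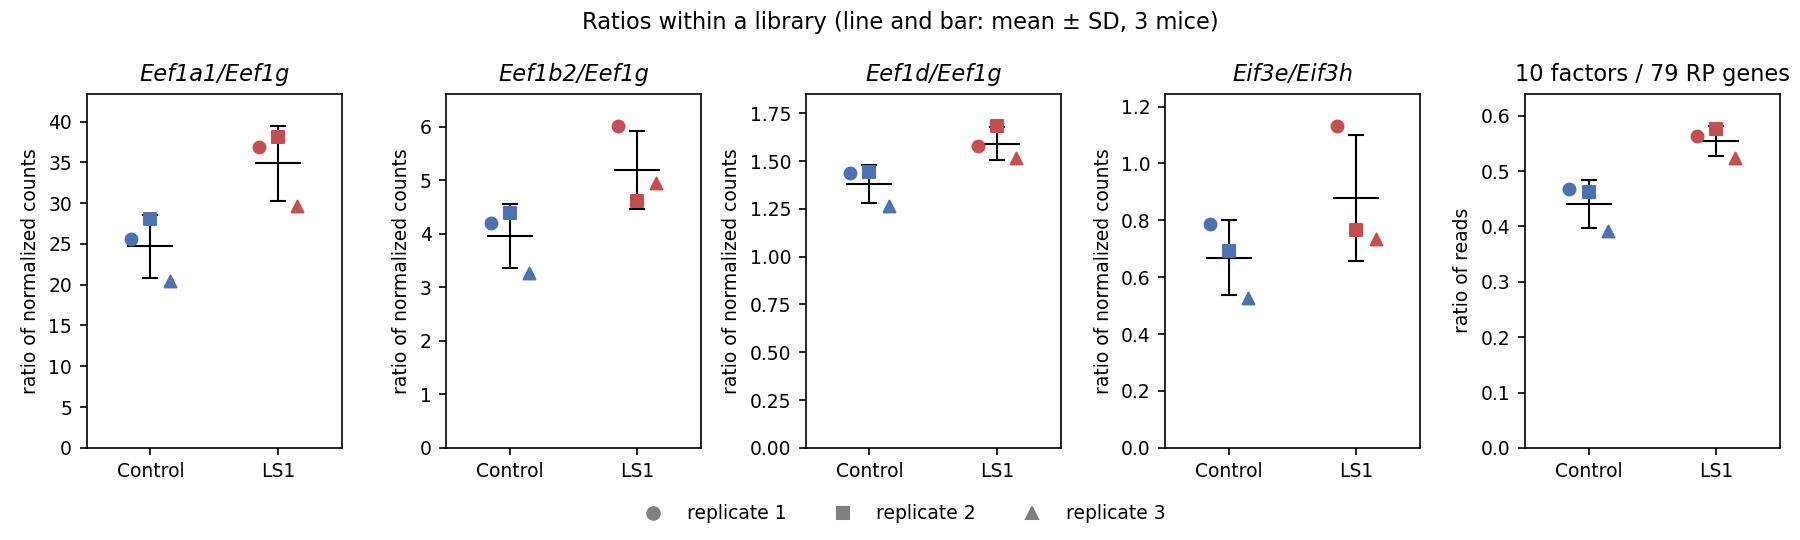
Ratios within each library (linear axes from 0) of normalized counts for 4 gene pairs and of reads for the 10 factors against 79 ribosomal protein genes (RP), with 1 point per library, a line at the mean and bars of 1 SD. LS1 lies above Control without overlap in the 3 ratios to *Eef1g* and in the ratio to the ribosomal protein genes, and the groups overlap in *Eif3e*/*Eif3h*.

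Processed pseudogenes bear on these values, above all on those of *Eef1g*. Of the 35-base windows of its main transcript, 67.3% also occurred in the transcripts of another gene, and 10 pseudogenes shared them. The 7 of these in the table held 31.6% to 41.8% of the signal of *Eef1g* and its pseudogenes together. Summed with them, *Eef1g* had 17296, 16161 and 22161 normalized counts in Control and 12607, 14786 and 16790 in LS1, a log2 difference of -0.33 with overlapping groups.

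The largest share lay on *Gm4366*, with 4471, 4116 and 5343 normalized counts in Control and 3103, 5010 and 4286 in LS1 (log2 fold change -0.19, adjusted p = 0.697 from limma). How far the reads were divided between *Eef1g* and such copies in each library was not tested.

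The share of 35-base windows found in another gene was 72.5% for *Eef1a1*, 42.7% for *Tpt1*, 37.0% for *Eif3e*, 34.8% for *Eif3h* and 30.3% for *Pabpc1*. It was 23.5% for *Eef1d*, 18.6% for *Eef2*, 10.03% for *Eef1b2* and 0.242% for *Eif3f*. *Eif3f* was therefore the gene whose reads are least open to exchange with a copy. Pseudogenes in the table held 7.15% to 8.40% of the combined signal for *Eef1a1* and 15.6% to 18.6% for *Tpt1*. They held at most 6.12% for each of the other genes besides *Eef1g* and *Eif3h*. For *Eif3h* neither of the 2 pseudogenes that share its windows was in the table, so its share could not be computed.

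Other annotated genes also overlap some of the 10. *Eef1b2* overlaps *Ndufs1* on the opposite strand, *Eef1d* overlaps *Naprt* on the same strand, and *Eef1b2*, *Eef2* and *Tpt1* hold small nucleolar RNAs. The sources used here do not say whether the counting used strand, so reads of *Eef1b2* and *Ndufs1* may not be separated.

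The 10 genes did not vary as a unit across the 6 libraries. Of the 45 pairs, 30 had a positive Pearson correlation of their log2 levels, and the coefficients ran from -0.679 to 0.978. *Eef1d*, *Eef1g*, *Eef2*, *Eif3f* and *Eif3h*, a group picked after the values were seen, correlated with each other at 0.748 to 0.978. They were highest in replicate 3 within each line. Their correlations with the other five ran from -0.679 to 0.409. The correlations among *Eef1b2*, *Eif3e* and *Tpt1* ran from 0.576 to 0.838. All points come from the same 6 libraries and share their size factors.

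The mean of the standardized log2 levels of the 10 genes was 0.128, -0.48 and 0.637 in Control and -0.283, -0.61 and 0.609 in LS1. Replicate 3 was the highest and replicate 2 the lowest in both lines. The genes outside the 10 whose profile over the 6 libraries was most like it were *Ube2e1* (Pearson r = 0.995), *Nifk* (0.992), *Olfml3* (0.991), *Chid1* (0.984) and *Cd84* (0.984). *Ube2e1*, a ubiquitin-conjugating enzyme, had 1692, 1400 and 1961 normalized counts in Control and 1541, 1387 and 2004 in LS1. With 6 libraries and 19308 genes, profiles this close are a description only.

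Together the 10 genes took 0.923%, 0.893% and 0.976% of all reads in Control and 0.878%, 0.893% and 0.992% in LS1. The groups overlapped, with means of 0.931% ± 0.0422 (SD, n = 3) and 0.921% ± 0.0622 (SD, n = 3) and p = 0.8 (exact two-sided permutation test). The difference of the means (LS1 minus Control) was -0.00994 percentage points, and -0.0456 without LS1 replicate 3. The 79 ribosomal protein genes took 1.97%, 1.93% and 2.49% of the reads in Control and 1.56%, 1.55% and 1.90% in LS1. These shares did not overlap (p = 0.1, exact permutation test). Their summed normalized counts did overlap by a narrow margin, with 1474110 to 1947560 in Control and 1197080 to 1477730 in LS1. Of the 79 genes, 16 had every LS1 library below every Control library, against 8.94% of all genes tested.

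The reads of the 10 factors per read of ribosomal protein genes were 0.468, 0.462 and 0.391 in Control and 0.564, 0.576 and 0.523 in LS1. Every LS1 library was higher, LS1 replicate 3 included, with means of 0.440 ± 0.0426 (SD, n = 3) and 0.554 ± 0.0277 (SD, n = 3) and p = 0.1 (exact permutation test, the smallest possible). Without *Eef1a1*, which alone took 40.7% to 47.6% of the reads of the 10 genes, the ratio was 0.275, 0.258 and 0.232 in Control and 0.308, 0.302 and 0.298 in LS1, also without overlap. Reads on pseudogenes of the factors or of the ribosomal protein genes were not added to these shares and ratios. How often ratios of other gene sets lack overlap was not counted.

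**Figure D4:**
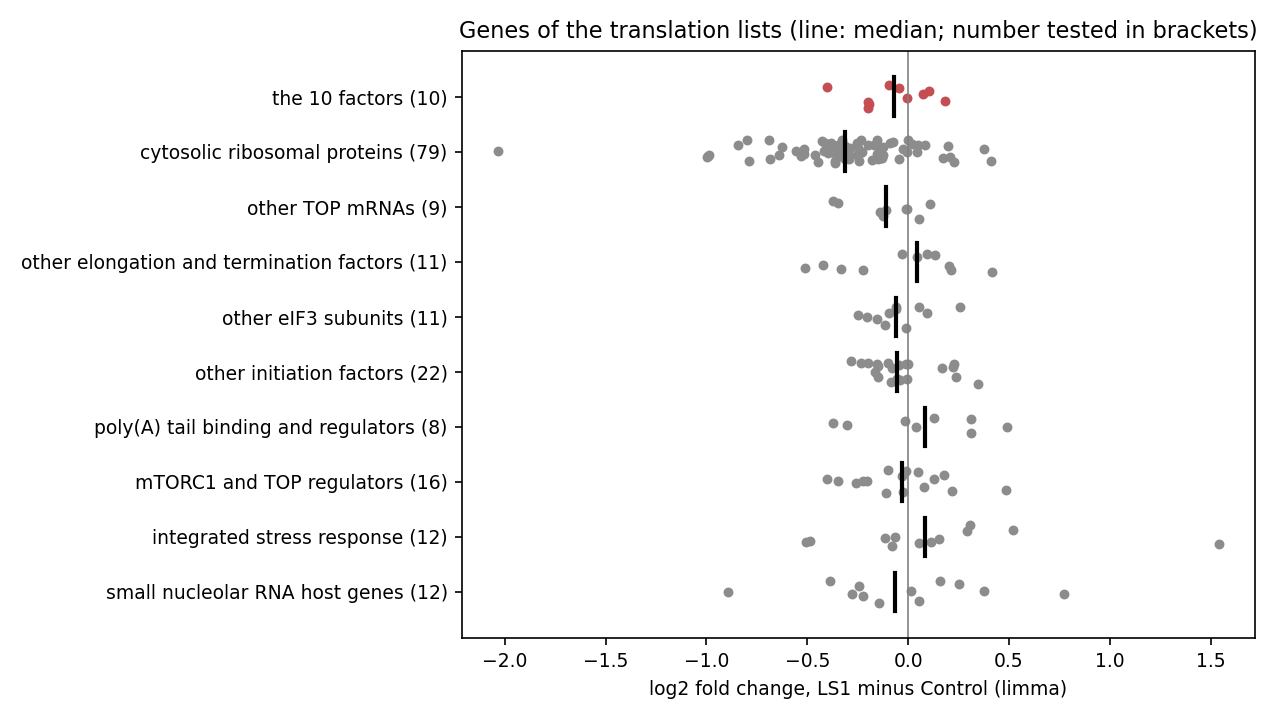
Log2 fold change (LS1 minus Control, limma) of each tested gene in the 10 factors (red) and in 9 other translation lists (grey), with a black line at the median of each list. The ribosomal protein genes have the lowest median (-0.31), the 10 factors lie near 0 (-0.07), and the medians of the other lists lie between -0.11 and 0.08.

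The genes of the same pathway were read from lists. Of the 79 ribosomal protein genes, 68 had a negative log2 fold change, against 49.3% of all genes tested. At an unadjusted p-value under 0.05 from limma, 22 were lower in LS1 and 0 higher, against 5.86% of all genes lower. After adjustment with limma 0 passed. DESeq2 called 7 of the 79, against 2.36% of all genes. *Rpl27a*, a protein of the large subunit, had a log2 fold change of -0.996 (SE 0.21, adjusted p = 0.142 from limma), and *Rpl13* one of -0.84 (adjusted p = 0.194 from limma). Relative to the Control mean, the median of this list was -0.36, -0.41 and -0.04 on the log2 scale in LS1 replicates 1, 2 and 3, against -0.16, -0.23 and 0.12 for the 10 factors. LS1 replicate 3 thus had the highest median of the LS1 libraries in both lists, and without it the median log2 fold change of the ribosomal protein genes was -0.39.

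Of 9 other TOP mRNAs, 7 had a negative log2 fold change (median -0.11), and *Pabpc4*, a poly(A) binding protein related to *Pabpc1*, was the 1 gene with an unadjusted p-value under 0.05. Its normalized counts were 7217, 6862 and 6802 in Control and 4675, 6061 and 5486 in LS1, without overlap, with a log2 fold change of -0.37 (SE 0.13, adjusted p = 0.299 from limma). Among the 8 genes that bind or regulate the poly(A) tail, *Larp4*, which stabilizes poly(A) tails, had a log2 fold change of 0.49 (adjusted p = 0.310 from limma). The list held 2 genes above and 1 below at an unadjusted p-value under 0.05.

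The 11 other elongation and termination factors had a median log2 fold change of 0.04. At an unadjusted p-value under 0.05, 1 of them was higher in LS1, *Eif5a2*, a paralog of the elongation factor eIF5A, at 0.41 (adjusted p = 0.320 from limma). Of the 11 other eIF3 subunits, 8 had a negative log2 fold change (median -0.06) and 0 had an unadjusted p-value under 0.05 from limma. The smallest p-value among them was that of *Eif3c*, with a log2 fold change of 0.26 (adjusted p = 0.445 from limma). Among 22 other initiation factors, *Eif4e*, which binds the mRNA cap, was the 1 gene at that threshold (0.35, adjusted p = 0.310 from limma).

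The regulators of TOP translation had log2 fold changes of both signs, 6 above and 10 below 0, with a median of -0.03. The summed normalized counts of the 17 in the table did not overlap, with 75066 to 75859 in Control and 69547 to 74140 in LS1. Of 16 tested genes of mTORC1 and its targets, 1 had an unadjusted p-value under 0.05, *Mlst8*, a core subunit of the mTOR complexes, with a log2 fold change of -0.35 (adjusted p = 0.329 from limma). Of 12 genes of the integrated stress response, 1 was higher and 1 lower at that threshold. They were both kinases of eIF2 alpha, *Eif2ak2* at 0.52 and *Eif2ak1*, the heme-regulated kinase, at -0.49 (adjusted p = 0.323 and 0.236 from limma). *Eif2ak2* had 2907, 2545 and 2423 normalized counts in Control and 4168, 4795 and 2649 in LS1. Its LS1 replicate 3 was thus within the Control range.

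Small nucleolar RNA host genes often carry a TOP motif and mostly encode no protein. Of the 12 tested, 6 had a negative log2 fold change, and the smallest p-value was that of *Gas5*, with 29421 normalized counts in Control and 15926 in LS1 on average (log2 fold change -0.89, SE 0.15, adjusted p = 0.0671 from limma). In all of these lists, 0 genes passed the adjusted threshold with limma.

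The sampled tissue held cartilage, bone and marrow, and the summed levels of chondrocyte, erythroid, B cell and proliferation genes did not overlap between the lines. Among the translation lists, those of the mTORC1 regulators, the poly(A) tail genes and the small nucleolar RNA host genes did not overlap either. How often sums of other gene lists lack overlap was not counted. In bulk samples, fewer cells of a type and less RNA per cell cannot be told apart. All 12 chondrocyte markers had a positive log2 fold change (median 0.53), and 0 passed the adjusted threshold of limma. Of them, 9 had an unadjusted p-value under 0.05 from limma, as had 2499 of all 19308 genes tested, in either direction. The summed normalized counts of the chondrocyte markers were 2394900 to 2708090 in Control and 3098010 to 3601760 in LS1. All 11 erythroid markers had a negative log2 fold change (median -0.55), 2 of them past the adjusted threshold of limma, with sums of 1820220 to 2333890 in Control and 994422 to 1222640 in LS1.

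Of 12 B cell markers, 11 had a negative log2 fold change (median -0.55), with sums of 57680 to 61401 in Control and 34769 to 54195 in LS1. All 10 proliferation genes had one as well (median -0.34), with sums of 264049 to 304448 and 221653 to 232077. The medians were 0.0050 for the 8 osteoblast, 0.03 for the 7 osteoclast, 0.22 for the 10 macrophage and 0.19 for the 10 neutrophil markers, and their summed levels overlapped between the lines. The median of the 8 skeletal muscle markers was -0.79 and that of the 10 interferon-stimulated genes was 1.49, again with overlapping sums. The interferon-stimulated genes had medians of 1.56, 2.87 and -0.02 (log2, relative to the Control mean) in LS1 replicates 1, 2 and 3. The medians in Control replicates 1, 2 and 3 were 0.22, -0.10 and -0.32, so the higher levels lay in LS1 replicates 1 and 2. No listed marker was at 0 in every library. The part of these shifts in the levels of the 10 translation factors and of the ribosomal protein genes was not tested.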

How the data were processed

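Polyadenylated RNA of 6 libraries, 3 Control and 3 LS1, was analysed. Per the labels and methods, the authors used HISAT2 2.0.2 for mapping to GRCm38, featureCounts 1.4.6 for counting and DESeq2 for testing. The deposited signal is the read count divided by the authors' size factor of the library, with no filter on genes. Reads were recovered by dividing by the value of 1 read (0.870 to 1.11), and 100% of values came out whole within 0.01. In Control replicate 1 this value was near 1 (1.009), and edgeR was also run without that library. The table has 0 unused columns. Replicates of a line differed far beyond read sampling (chi-square per degree of freedom 42.9 to 164).

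Genes with a mean of at least 20 reads were tested on log2(value + 1) by limma 3.58.1 (R 4.3.3), with mean-variance trend, robust moderation and Benjamini-Hochberg adjustment at 0.05. A fold change on this scale understates changes of low genes. Alternatives were edgeR 4.0.16, DESeq2 1.42.0, limma-voom, other scalings, filters and pseudocounts, a replicate block, and each library left out. The limma, limma-voom, edgeR and DESeq2 fits were tested on simulated data. Ratios and shares were compared by exact two-sided permutation tests, whose smallest p is 0.1. Names, coordinates and transcripts came from GENCODE M21, in which 98.9% of identifiers had a symbol. All 10 genes are reported, with up to 2 genes of smallest p from each other translation list and the 5 genes of most similar profile. The genes, lists and tests were chosen with earlier results of these data known. The 5′ sequence of 1 of the 10 genes is not reported here.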

Additional observations from a re-analysis of the deposited data

How the results depend on the processing

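None of the 10 genes was called under any of the 19 alternatives run on the gene tests, and the median log2 fold change of the 10 stayed between -0.19 and -0.026. The number of all genes called was 14, against 7 with edgeR, 456 with DESeq2, 45 with no filter on low values, 9 with a filter at 100 reads and 5 with edgeR without Control replicate 1, an alternative chosen after seeing the data, as was the addition of pseudogenes to the ratios. Of the 456 genes, 276 were higher in LS1, against 2 of the 14. Leaving out 1 library in turn gave 5 to 324 genes, with 5 without Control replicate 2, 46 without LS1 replicate 1 and 324 without LS1 replicate 3. The number of the 10 genes below in every library then ranged from 0 to 5. The difference in the share of reads ranged from -0.0456 to 0.0127 percentage points. Of the 190 values of single genes, 9 turned sign, all from values near 0. Over the fits without 1 library, the ranges were -0.11 to 0.14 for *Eef1b2*, -0.27 to 0.050 for *Eif3f*, -0.12 to 0.037 for *Pabpc1* and -0.046 to 0.23 for *Tpt1*. *Pabpc1* turned to 0.031 without Control replicate 1, 0.037 without LS1 replicate 3 and 0.018 with edgeR on 5 libraries. *Tpt1* turned to -0.046 without Control replicate 2, -3.4e-05 without LS1 replicate 1 and -0.0054 without LS1 replicate 3. *Eef1b2* turned to 0.013 without Control replicate 3 and 0.14 without LS1 replicate 2, and *Eif3f* to 0.050 without LS1 replicate 1. The causes were not tested. The letter in the sample titles is not stated to pair mice, and deviations of same-letter libraries correlated at 0.0536, 0.0211 and 0.224, so it was used as a replicate block only as an alternative. With the replicate block 12 genes were called, none of the 10 among them. *Eef1g* then had a p-value of 0.00323 and an adjusted p-value of 0.130 from limma. With 3 mice per line, spread between libraries beyond read sampling limits these comparisons. Each library is 1 mouse, so spread between mice and between preparations cannot be told apart.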
